A study of Mus musculus with 6 samples.

Results

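Mouse alveolar organoid cells kept flat in serum for 7 days were compared with cells of the same lines kept as 3D organoids, across all measured genes. The 2D FBS libraries came from flat cultures in Ad-DMEM F/12, a basal medium, with 10% fetal bovine serum (FBS). The 3D FNHCS libraries came from cells held in FNHCS medium inside drops of 90% Matrigel, a basement membrane extract from a mouse tumour, and are called the control in the labels. A flat culture in FNHCS medium (2D FNHCS) is the third condition of the series and enters the fit, so 4 of the 6 libraries form the comparison. The lines SN3593 and SN3595 each gave 1 library per condition, and values of a condition are given for SN3593 and then SN3595. All cells were alveolar organoid cells from lung of genotype Sftpc-eGFP, named for the surfactant protein C gene and a green fluorescent protein, and were grown at 37 °C in 5% CO2 and ambient oxygen. The series mentions eGFP-positive and eGFP-negative cells, but the labels do not state a sort of these libraries by eGFP, the composition of FNHCS medium or the surface under the flat cultures. Format and medium changed together, so their parts in any difference below cannot be told apart. The labels do not tie each line to its own animal, and the p-values below therefore cover the variation of these particular lines and libraries, which may be technical in part.

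The alveolus is lined by 2 epithelial cell types. Alveolar type 2 (AT2) cells are cuboidal, make and store surfactant in lamellar bodies, secrete host defence proteins and divide to renew the epithelium. Alveolar type 1 (AT1) cells are thin and flat, cover most of the gas exchange surface and lay down much of the basement membrane with it. AT2 cells placed on stiff flat plastic with serum are long known to lose surfactant gene expression and to take on AT1 features.

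Total expected counts were between 33634368 and 43334665 per library. Of 23224 genes in the table, 14416 passed the filter on low counts and were tested. CPM, counts scaled to library size with TMM factors, are compared between libraries for the same gene, not between genes. The first principal component of log CPM held 67.3% of the variance and placed the 2D FBS libraries at 103 and 104, 2D FNHCS at -0.71 and 13.7, and 3D FNHCS at -107 and -113. The Pearson correlation of log CPM across genes was 0.979 between the 2D FBS libraries and 0.974 between the 3D FNHCS libraries, against 0.818 to 0.832 between the conditions.

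Markers of other cell types were low in all 4 libraries, with the exceptions named here, and their part in the results below was not tested. Of the 16 fibroblast markers, 4 were tested and none was called by edgeR, with 1 lower at an unadjusted p below 0.05 and none called with limma-voom. In each of 4 other settings 1 was called lower, namely DESeq2, upper-quartile factors, the lines as replicate block and leaving out 2D FBS SN3595. In a library of the comparison, 4 to 8 of the 16 were at 0, as were 5 to 8 of the 13 leukocyte, 4 to 6 of the 11 endothelial, 3 to 5 of the 18 airway, 6 to 8 of the 16 gastrointestinal and 1 to 3 of the 8 mesothelial markers. The summed level of the fibroblast markers was 30.9 and 67.9 CPM in 2D FBS, against 146 and 93.2 CPM in 3D FNHCS, nearly all of it Npnt, which epithelium also makes. The defining fibroblast gene Col1a1 had 12 and 5 counts in 2D FBS, against 6 and 9 counts in 3D FNHCS, and Pdgfra had 4 and 3 counts in 2D FBS, against 4 and 1 in 3D FNHCS. The endothelial gene Pecam1 had 1 and 0 counts in 2D FBS, against 3 and 8 in 3D FNHCS. Vwf, the 1 endothelial marker of 11 that was tested, was called higher with 1.47 and 1.29 CPM in 2D FBS, against 0.173 and 0.170 CPM in 3D FNHCS, a call lost without 2D FBS SN3593 (adjusted p = 0.0595), 2D FBS SN3595 (adjusted p = 0.0539), 3D FNHCS SN3593 (adjusted p = 0.0794) or 3D FNHCS SN3595 (adjusted p = 0.0766), with a range of 0.000648 to 0.0794 over all alternatives. The pan-leukocyte gene Ptprc had 11 and 5 counts in 2D FBS, against 11 and 6 in 3D FNHCS. Of 13 leukocyte markers, 5 were tested, Csf1r rose and Cd68 fell, the fall not called without 2D FBS SN3595, and 2 rose with the lines as replicate block or without 2D FNHCS SN3595. The summed leukocyte markers were 6.18 and 10.7 CPM in 2D FBS, against 21.3 and 20.2 CPM in 3D FNHCS. The summed endothelial markers were 2.07 and 1.44 CPM in 2D FBS, against 0.864 and 0.822 CPM in 3D FNHCS. Of 18 airway markers, 8 were tested, Krt14 rose and Muc5b, Muc5ac and Spdef fell, or 5 fell and 2 rose with the lines as replicate block. Krt14 was not called without 3D FNHCS SN3593, without 3D FNHCS SN3595 or without 2D FBS SN3593, and 1 fell without 2D FBS SN3593 and 1 without 2D FBS SN3595. Summed airway markers were 14.8 and 16.1 CPM in 2D FBS, against 37.0 and 58.4 CPM in 3D FNHCS. Of 16 gastrointestinal markers, 4 were tested, Ctse rose and Lgals4 fell, the fall not called without 2D FBS SN3593, and 2 fell with the lines as replicate block, without 2D FNHCS SN3593 or without 2D FNHCS SN3595. Summed gastrointestinal markers were 43.5 and 124 CPM in 2D FBS, against 8.15 and 6.66 CPM in 3D FNHCS, and Ctse, the gene of cathepsin E, accounted for most of the sum in 2D FBS. Of 8 mesothelial markers, 3 were tested and rose, 1 of them without 3D FNHCS SN3593 and 1 without 3D FNHCS SN3595. With limma-voom 1 of the 3 was called higher, and 1 when tested against a log2 fold change of 1. Summed mesothelial markers were 3790.4 and 5204 CPM in 2D FBS, against 489 and 485 CPM in 3D FNHCS, carried by the keratin gene Krt19 and by Msln, the gene of the surface protein mesothelin. The defining mesothelial genes Wt1 and Upk3b had at most 19 counts in any of the 4 libraries. Of tested members, 50% of airway, 50% of gastrointestinal, 40% of leukocyte and 100% of endothelial and mesothelial markers were called. Over all tested genes that share was 40.5%.

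A large share of the transcriptome differed. At an adjusted p below 0.05, 5836 genes were called, which is 40.5% of those tested. Of these, 2874 (19.9% of those tested) were higher in 2D FBS and 2962 (20.5%) were lower. The split moved with the scaling, to 2461 higher and 3577 lower with upper-quartile factors and to 2598 higher and 3401 lower with library size alone. The median absolute log2 fold change of the called genes was 1.64, and 4503 of them changed by at least 1 on the log2 scale. At least 5 on that scale was reached by 268 genes that rose and 253 that fell. For 10812 genes (75.0% of those tested) the libraries of the 2 conditions did not overlap. The median log2 fold change of all tested genes was -0.03. With upper-quartile factors it was -0.19, and with library size alone -0.15, so small differences are read against that shift. The size of the count rests on having both lines, and the library left alone in its condition is then assumed to vary like the others. Leaving out 2D FBS SN3593 left 3452 calls, leaving out 2D FBS SN3595 left 3285, leaving out 3D FNHCS SN3593 left 3187 and leaving out 3D FNHCS SN3595 left 3382.

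**Figure D1:**
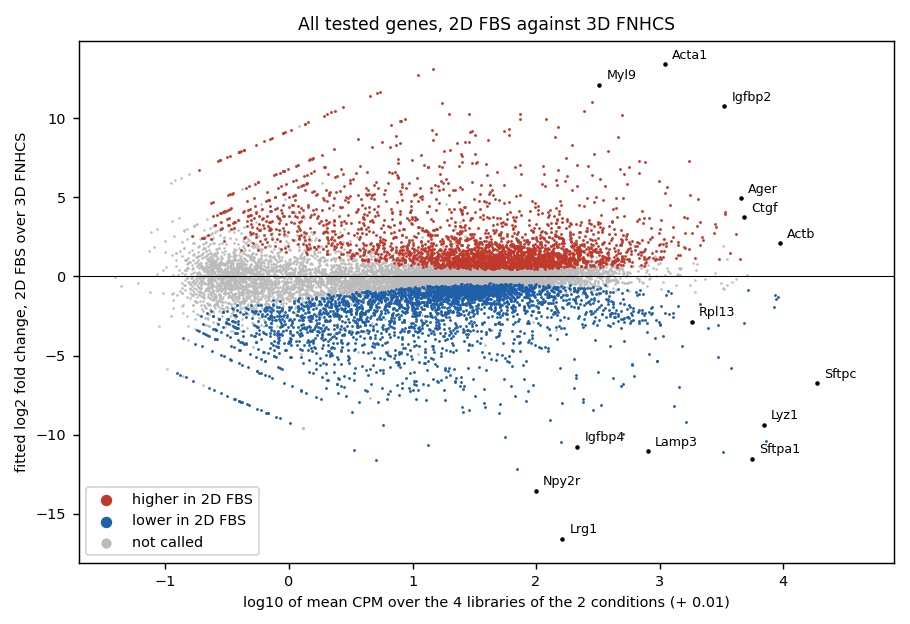
Fitted log2 fold change of 2D FBS over 3D FNHCS (vertical axis) against the log10 of the mean CPM of the 4 libraries (horizontal axis), 1 point per tested gene. Red points are the 2874 genes called higher in 2D FBS, blue points the 2962 called lower and grey points were not called, and the black points are named genes, from Acta1 at the top to Sftpc at the right. The fitted value of a gene with 0 counts in a condition, such as Lrg1, depends on the prior count.

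Genes of the AT2 programme fell in most members. Of 31 AT2 markers, all tested, 25 fell and none rose, with a median log2 fold change of -5.09, against -0.03 over all genes. Sftpc, the surfactant protein that defines the cell type, had 438 and 264 CPM in 2D FBS, against 33502 and 41014 CPM in 3D FNHCS (log2 fold change -6.73 ± 0.537 SE, edgeR adjusted p = 0.00106). It took 0.0401% and 0.0241% of all counts in 2D FBS, against 3.37% and 4.0% in 3D FNHCS. In bulk RNA, fewer cells that make a transcript and less of it per cell cannot be told apart. The other surfactant proteins fell as well. Sftpa1 had 4.42 and 3.14 CPM in 2D FBS, against 8126 and 14094 CPM in 3D FNHCS (log2 fold change -11.52 ± 0.604 SE, edgeR adjusted p = 0.00074). Sftpb, needed for the surface film, had 2.04 and 1.24 CPM in 2D FBS, against 455 and 702 CPM in 3D FNHCS (log2 fold change -8.46 ± 0.431 SE, edgeR adjusted p = 0.00074). Sftpd, a collectin of host defence, had 347 and 929.7 CPM in 2D FBS, against 4924 and 5595 CPM in 3D FNHCS (log2 fold change -3.04 ± 0.564 SE, edgeR adjusted p = 0.00828). The libraries of the conditions did not overlap for any of these genes, which was also so for 75.0% of all tested genes.

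The machinery that stores and recycles surfactant followed. Lamp3, a membrane protein of lamellar bodies, had 0.977 and 0.557 CPM in 2D FBS, against 1249 and 1949 CPM in 3D FNHCS (log2 fold change -11.03 ± 0.504 SE, edgeR adjusted p = 0.000664). Slc34a2, the phosphate carrier of AT2 cells, had 7.56 and 3.65 CPM in 2D FBS, against 2178 and 4364 CPM in 3D FNHCS (log2 fold change -9.19 ± 0.650 SE, edgeR adjusted p = 0.000787). Abca3, the lipid pump of the lamellar body, had 74.2 and 86.6 CPM in 2D FBS, against 363 and 477 CPM in 3D FNHCS (log2 fold change -2.38 ± 0.273 SE, edgeR adjusted p = 0.00206). The conditions did not overlap in any of these, against 75.0% of all tested genes without overlap. The lysozyme gene Lyz1 had 19.4 and 23.1 CPM in 2D FBS, against 14218 and 13710.2 CPM in 3D FNHCS (log2 fold change -9.36 ± 0.447 SE, edgeR adjusted p = 0.000695), and its reads are shared with the close relative Lyz2 by a model, so each is uncertain alone. The AT2 markers not called were Fgfr2, Hc, Cd74, Bex2, Ctsh and Nkx2-1, of which Bex2 was called with the lines as replicate block (edgeR adjusted p = 0.0158). Among them Ctsh, a protease that processes surfactant proteins, had 2008 and 3713 CPM in 2D FBS, with 3784 and 4648 CPM in 3D FNHCS (edgeR adjusted p = 0.274), and Cd74, the invariant chain of class II antigen presentation, had 1951 and 922 CPM in 2D FBS, with 2221 and 1964 CPM in 3D FNHCS (edgeR adjusted p = 0.471). Nkx2-1, the master transcription factor of lung epithelium, had 80.8 and 83.4 CPM in 2D FBS, with 131 and 194 CPM in 3D FNHCS, a log2 fold change of -0.99 ± 0.359 SE that missed the threshold (edgeR adjusted p = 0.0705). It passed it with the lines in the fit (edgeR adjusted p = 0.0275 with the lines as replicate block, with a range of 0.0197 to 0.7 over all alternatives).

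The secreted host defence genes had the lowest median of the 50 lists. Of 18 members, 14 were tested, 13 fell and none rose (median -6.67 on the log2 scale). Without 2D FBS SN3593 8 fell, and without 2D FBS SN3595 7. Wfdc2, a secreted protease inhibitor, had 190.0 and 212 CPM in 2D FBS, against 1260.3 and 1397 CPM in 3D FNHCS (log2 fold change -2.72 ± 0.221 SE, edgeR adjusted p = 0.00107). The complement gene C3 had 2.01 and 0.279 CPM in 2D FBS, against 84.2 and 255 CPM in 3D FNHCS (log2 fold change -7.23 ± 1.14 SE, edgeR adjusted p = 0.00487). Other secreted proteins outside this list fell as well. Chi3l1, a chitinase-like protein and an AT2 marker, had 3.10 and 2.86 CPM in 2D FBS, against 5269 and 7717 CPM in 3D FNHCS (log2 fold change -11.09 ± 0.709 SE, edgeR adjusted p = 0.00074). Lrg1, a secreted glycoprotein of the acute phase, was listed at 0 in both 2D FBS libraries and had 111 and 538 CPM in 3D FNHCS, at least 4002-fold lower in 2D FBS when a floor of 3 counts per library stands in for 0 (edgeR adjusted p = 0.00446). Trf, the gene of the iron carrier transferrin, had 2.59 and 18.7 CPM in 2D FBS, against 8967 and 19888 CPM in 3D FNHCS (log2 fold change -10.40 ± 1.26 SE, edgeR adjusted p = 0.00237). In these 5 genes the lowest 3D FNHCS library was above the highest 2D FBS library. Over all tested genes, 75.0% had no overlap in either direction, and the rule that named the largest falls required it.

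Antigen presentation and chemokine genes divided. Of 8 MHC class II genes, 6 fell and none rose, with a median of -3.73 on the log2 scale, or -3.19 with H2-DMb2, which was at 0 in 2D FBS, set at its bound. Without 2D FBS SN3595 2 fell. Ciita, the master regulator of class II transcription, had 0.690 and 0.405 CPM in 2D FBS, against 26.3 and 22.1 CPM in 3D FNHCS (log2 fold change -5.47 ± 0.641 SE, edgeR adjusted p = 0.00218), while Cd74 was not called. Among 19 tested NF-kB targets and chemokines, 9 fell and 5 rose. The neutrophil chemokines Cxcl1, Cxcl2, Cxcl3 and Cxcl5 fell, and Cxcl3 had 0.0287 and 0.0253 CPM in 2D FBS, against 50.0 and 231 CPM in 3D FNHCS. It was lower in 2D FBS by 5247-fold, with an exact 95% counting interval of 1452 to 43331 (edgeR adjusted p = 0.00457). Csf2, the growth factor GM-CSF that AT2 cells give to alveolar macrophages, had 0.201 and 0.0253 CPM in 2D FBS, against 26.2 and 25.0 CPM in 3D FNHCS (log2 fold change -7.83 ± 0.633 SE, edgeR adjusted p = 0.00107). Those that rose were Cxcl16, Icam1, Csf1, Csf3 and Tnfaip3, 3 of the 5 without 3D FNHCS SN3593 and likewise 3 without 3D FNHCS SN3595. Icam1, an adhesion receptor for leukocytes, had 4229 and 5358 CPM in 2D FBS, against 667 and 786 CPM in 3D FNHCS (log2 fold change 2.72 ± 0.454 SE, edgeR adjusted p = 0.00584). Cxcl16 had 656 and 734 CPM in 2D FBS, against 129 and 125 CPM in 3D FNHCS (log2 fold change 2.45 ± 0.208 SE, edgeR adjusted p = 0.0011).

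The AT1 programme rose. Of 28 AT1 markers, 27 were tested, 23 rose and none fell, with a median log2 fold change of 3.89. With DESeq2 or the 4 libraries alone 26 rose, with limma-voom 21, and 16 when tested against a log2 fold change of 1. Their number moved with the libraries: 13 rose without 3D FNHCS SN3593, 14 without 3D FNHCS SN3595 and 13 without 2D FBS SN3595. Ager, the receptor for advanced glycation end products and the most widely used AT1 marker, had 7535 and 10115 CPM in 2D FBS, against 326 and 243 CPM in 3D FNHCS (log2 fold change 4.95 ± 0.534 SE, edgeR adjusted p = 0.00175). Igfbp2, a binding protein for insulin-like growth factors that marks mature AT1 cells, had 9709.5 and 3671 CPM in 2D FBS, against 6.31 and 1.45 CPM in 3D FNHCS (log2 fold change 10.75 ± 1.08 SE, edgeR adjusted p = 0.00154). Both lines of 2D FBS thus lay far above both lines of 3D FNHCS. Col4a3, a basement membrane collagen chain, had 2145 and 2334 CPM in 2D FBS, against 62.0 and 27.2 CPM in 3D FNHCS (log2 fold change 5.65 ± 0.593 SE, edgeR adjusted p = 0.00165). Krt7 had 6797 and 5926 CPM in 2D FBS, against 483 and 275 CPM in 3D FNHCS (log2 fold change 4.07 ± 0.428 SE, edgeR adjusted p = 0.00166). Scnn1g, a subunit of the epithelial sodium channel, had 940.2 and 1735 CPM in 2D FBS, against 19.1 and 10.0 CPM in 3D FNHCS (log2 fold change 6.52 ± 0.802 SE, edgeR adjusted p = 0.00246).

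Among the AT1 markers not called, Hopx, a transcriptional cofactor of AT1 cells, had 1494 and 2114 CPM in 2D FBS, with 475 and 212 CPM in 3D FNHCS, a log2 fold change of 2.39 ± 0.794 SE (edgeR adjusted p = 0.0543). The conditions did not overlap for Hopx, as for 75.0% of all tested genes. Pdpn, podoplanin, was low throughout, at 2.33 and 7.65 CPM in 2D FBS, with 0.0288 and 0.454 CPM in 3D FNHCS (edgeR adjusted p = 0.0768), and it passed the threshold with the lines in the fit (edgeR adjusted p = 0.0071 with the lines as replicate block, with a range of 0.00473 to 0.255 over all alternatives). Aqp5, a water channel of AT1 cells, was not called, at 1556 and 1816 CPM in 2D FBS, with 1215 and 1143 CPM in 3D FNHCS (edgeR adjusted p = 0.31). The remaining AT1 marker not called was Cyp2b10, which was called with the lines as replicate block (edgeR adjusted p = 0.0020). The labels name the 2D FBS libraries type I and the 3D FNHCS libraries type II, and the marker lists run that way, apart from the members named here.

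**Figure D2:**
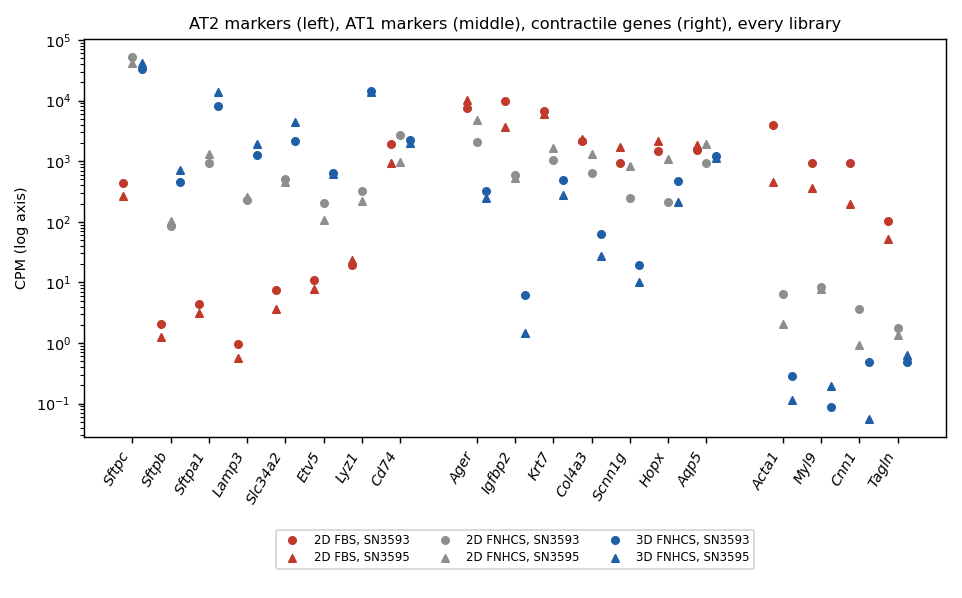
CPM on a log axis of 8 AT2 markers, 7 AT1 markers and 4 contractile genes in every library, circles for SN3593 and triangles for SN3595. The 2D FBS libraries (red) lie below 3D FNHCS (blue) in the AT2 markers and above it in the AT1 markers and contractile genes. The 2D FNHCS libraries (grey) lie between them in most, and Cd74, Hopx and Aqp5 were not called.

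Genes seen in cells between the AT2 and AT1 states moved in part. Of 21 transitional markers, 11 rose and 2 (Sprr1a and Phlda1) fell, with a median of 1.60, and 1 fell without 3D FNHCS SN3595, without 2D FBS SN3593 or without 2D FBS SN3595. Krt8, the keratin after which the transitional cells are often named, had 9168 and 5163 CPM in 2D FBS, against 1315 and 948 CPM in 3D FNHCS (log2 fold change 2.66 ± 0.473 SE, edgeR adjusted p = 0.00718). Plaur, the receptor of urokinase, had 518 and 423 CPM in 2D FBS, against 22 and 20.9 CPM in 3D FNHCS (log2 fold change 4.45 ± 0.213 SE, edgeR adjusted p = 0.000695). Krt19 had 3231 and 3061 CPM in 2D FBS, against 485 and 473 CPM in 3D FNHCS (log2 fold change 2.72 ± 0.248 SE, edgeR adjusted p = 0.00132). The 4 libraries thus showed high Krt19 in both lines of 2D FBS. Of 9 tested keratins, 6 rose and none fell. Krt80 had 281 and 156 CPM in 2D FBS, against 4.26 and 3.52 CPM in 3D FNHCS (log2 fold change 5.81 ± 0.390 SE, edgeR adjusted p = 0.00075).

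Calcium-binding proteins of the membrane and cytoplasm rose with them. Of 10 tested annexins, 8 rose and none fell, and of 9 tested S100 genes, 8 rose and S100g fell, the call of S100g being lost without 2D FBS SN3593 or without 2D FBS SN3595. Anxa1, a regulator of inflammation that is also on the transitional list, had 6569 and 6007 CPM in 2D FBS, against 372 and 448 CPM in 3D FNHCS (log2 fold change 3.94 ± 0.294 SE, edgeR adjusted p = 0.000872). Anxa8 had 184 and 110.3 CPM in 2D FBS, against 0.144 and 0.0851 CPM in 3D FNHCS (log2 fold change 10.29 ± 1.35 SE, edgeR adjusted p = 0.00285). S100a6 had 1769 and 1244 CPM in 2D FBS, against 10.2 and 9.70 CPM in 3D FNHCS (log2 fold change 7.24 ± 0.416 SE, edgeR adjusted p = 0.00074). S100a4 was at 0 in both 3D FNHCS libraries and had 5.80 and 1.80 CPM in 2D FBS, at least 44.3-fold higher against a floor of 3 counts per library (edgeR adjusted p = 0.00416).

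Genes of the smooth and skeletal muscle contractile apparatus rose. Of 18 such genes, 14 were tested, 12 rose and none fell, with a median log2 fold change of 7.29. Acta1, skeletal muscle actin, had 3924 and 461 CPM in 2D FBS, against 0.288 and 0.113 CPM in 3D FNHCS (log2 fold change 13.39 ± 1.65 SE, edgeR adjusted p = 0.00247). Both 2D FBS lines were far above every 3D FNHCS value, with SN3593 the higher. Myl9, a myosin light chain of smooth muscle, had 945 and 357 CPM in 2D FBS, against 0.0864 and 0.199 CPM in 3D FNHCS (log2 fold change 12.12 ± 0.767 SE, edgeR adjusted p = 0.00074). Acta2, smooth muscle actin, had 838 and 137 CPM in 2D FBS, against 0.403 and 0.284 CPM in 3D FNHCS (log2 fold change 10.46 ± 1.42 SE, edgeR adjusted p = 0.00314). Cnn1, calponin, had 934 and 198 CPM in 2D FBS, against 0.490 and 0.0567 CPM in 3D FNHCS (log2 fold change 11.01 ± 1.45 SE, edgeR adjusted p = 0.00292). Tagln, transgelin, had 104 and 51.6 CPM in 2D FBS, against 0.490 and 0.624 CPM in 3D FNHCS (log2 fold change 7.12 ± 0.473 SE, edgeR adjusted p = 0.000748). In each of these SN3593 was the higher 2D FBS line. The filamin gene Flna had 1746 and 1036 CPM in 2D FBS, against 89.4 and 122 CPM in 3D FNHCS (log2 fold change 3.72 ± 0.364 SE, edgeR adjusted p = 0.0015). Expected counts divide reads between actin genes by a model, so each actin is uncertain alone.

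Mylk and Smtn were not called. The other 4 of the 18, Myocd, Des, Actg2 and Actc1, did not pass the filter. Myocd, the smooth muscle transcriptional coactivator, had 4 and 2 counts in 2D FBS, against 2 and 5 counts in 3D FNHCS. Des, desmin, had 6 and 0 counts in 2D FBS, against 0 and 2 in 3D FNHCS. Actg2, enteric smooth muscle actin, had 138 and 6 counts in 2D FBS, against 1 and 0 in 3D FNHCS.

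In muscle and fibroblasts, contractile genes are classic targets of serum response factor, which binds the CArG box, and of TEAD factors, the DNA-binding partners of YAP and TAZ, which bind the core GGAATG. The promoters below are shown because these genes rose together. They are the 250 bases before a RefSeq start of transcription, 5′ to 3′ on the gene's strand in build GRCm38.p6. Any strict CArG box (CC, then only A or T, then GG, 10 bases in all) and TEAD core (either strand) is in capitals. Near matches to the CArG box, such as ccctatatgg and ccttgtttgg in Acta2, stay in lower case and were not counted. A window without a marked box may thus still hold an imperfect one.
Acta1: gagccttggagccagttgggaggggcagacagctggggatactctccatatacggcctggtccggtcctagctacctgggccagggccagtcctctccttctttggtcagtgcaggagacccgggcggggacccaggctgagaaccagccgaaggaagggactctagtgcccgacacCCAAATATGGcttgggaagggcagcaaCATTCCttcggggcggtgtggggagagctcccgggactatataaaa
Myl9: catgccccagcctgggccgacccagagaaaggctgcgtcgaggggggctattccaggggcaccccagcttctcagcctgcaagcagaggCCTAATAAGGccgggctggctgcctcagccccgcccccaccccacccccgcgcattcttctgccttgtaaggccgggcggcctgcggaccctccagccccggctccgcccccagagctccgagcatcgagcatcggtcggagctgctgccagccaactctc
Acta2: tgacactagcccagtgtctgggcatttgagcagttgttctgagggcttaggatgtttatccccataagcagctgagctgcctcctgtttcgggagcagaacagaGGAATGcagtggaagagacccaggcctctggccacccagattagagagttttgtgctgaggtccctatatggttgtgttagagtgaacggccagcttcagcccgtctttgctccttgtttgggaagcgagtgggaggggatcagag
Ankrd1: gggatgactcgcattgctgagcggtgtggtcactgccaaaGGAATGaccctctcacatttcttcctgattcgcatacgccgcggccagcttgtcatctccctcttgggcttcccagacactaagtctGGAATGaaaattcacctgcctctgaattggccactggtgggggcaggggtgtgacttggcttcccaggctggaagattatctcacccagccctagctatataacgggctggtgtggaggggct
Acta1 lies at chr8:123894776-123895025 on the minus strand, and its CArG box begins 73 bases and its TEAD core 46 bases before the start. Myl9 lies at chr2:156775214-156775463 on the plus strand, with a CArG box 161 bases before the start. Acta2 lies at chr19:34255374-34255623 on the minus strand, with a TEAD core 146 bases before the start. Ankrd1, a target of YAP described below, lies at chr19:36119845-36120094 on the minus strand, with TEAD cores 210 and 123 bases before the start. A gene with several RefSeq starts had a window for each and was counted once if any held the motif. Genes with more starts thus had more windows in the shares below. A CArG box on either strand was in such a window of 3 of 14 contractile genes with a RefSeq promoter (Acta1, Actc1 and Myl9, 21.4%). It was in 4 of 23 actin and focal adhesion genes (17.4%). It was in 1.62% of all 27025 genes. The CArG box was in 0 of 13 YAP and TAZ targets. The TEAD core was in 8 of the 14 contractile genes (57.1%) and in 7 of 13 YAP and TAZ targets (53.8%), against 14.4% of all genes. In the actin and focal adhesion genes it was in 4 of 23 (17.4%), near the share of all genes. The 8 contractile genes with a TEAD core include Mylk and Smtn, which were not called. Actc1, among those with a CArG box, did not pass the filter. Genes that fell had the TEAD core too, among them Lamp3, Slc34a2, Abca3 and Lyz1. A link between either motif and the direction of change was not tested. The motifs do not overlap in the windows shown. These matches describe letters in the window and no binding was measured.

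The actin cytoskeleton of non-muscle cells rose as well. Of 25 genes, 20 rose and none fell, with a median of 1.64. The number was 9 without 3D FNHCS SN3593, 13 without 3D FNHCS SN3595 and 12 without 2D FBS SN3593. Actb, cytoplasmic beta-actin, had 16728 and 13875 CPM in 2D FBS, against 2964 and 4242 CPM in 3D FNHCS (log2 fold change 2.09 ± 0.394 SE, edgeR adjusted p = 0.00884), a call lost without 3D FNHCS SN3593 (adjusted p = 0.0622), with a range of 3.05e-09 to 0.0622 over all alternatives. Zyx, zyxin of focal adhesions, had 512 and 387 CPM in 2D FBS, against 57.5 and 63.4 CPM in 3D FNHCS (log2 fold change 2.89 ± 0.218 SE, edgeR adjusted p = 0.000888). Fhl2, a cofactor that binds serum response factor, had 135 and 55.4 CPM in 2D FBS, against 0.864 and 1.11 CPM in 3D FNHCS (log2 fold change 6.59 ± 0.608 SE, edgeR adjusted p = 0.00134), and Srf itself had 82.0 and 57.3 CPM in 2D FBS, with 32.2 and 35.1 CPM in 3D FNHCS (log2 fold change 1.05 ± 0.209 SE, edgeR adjusted p = 0.0103), a call lost without 2D FBS SN3593 (adjusted p = 0.0534), 3D FNHCS SN3593 (adjusted p = 0.0721) or 3D FNHCS SN3595 (adjusted p = 0.0503), with a range of 0.000132 to 0.535 over all alternatives. Those not called were Vasp, Iqgap1, Tmsb10, Tmsb4x and Lasp1.

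Integrins, the receptors that tie the cytoskeleton to the matrix, rose in 10 of 12 tested genes. Itga2 fell, and that call was lost without 3D FNHCS SN3595, without 2D FBS SN3593 or without 2D FBS SN3595. The rises numbered 6 without 3D FNHCS SN3593 and 6 without 3D FNHCS SN3595. Itgb3, a subunit of the vitronectin receptor, had 213 and 79.9 CPM in 2D FBS, against 0.259 and 0.0284 CPM in 3D FNHCS (log2 fold change 9.97 ± 0.888 SE, edgeR adjusted p = 0.00127). Its partner Itgav had 344 and 291 CPM in 2D FBS, against 72.6 and 97.0 CPM in 3D FNHCS (log2 fold change 1.91 ± 0.217 SE, edgeR adjusted p = 0.00202). Itgb6, a subunit of the epithelial integrin that activates latent TGF-beta, had 582 and 1119 CPM in 2D FBS, against 36.1 and 47.8 CPM in 3D FNHCS (log2 fold change 4.34 ± 0.536 SE, edgeR adjusted p = 0.00248). Itgb1, the common beta chain, had 1778 and 1906 CPM in 2D FBS, against 398 and 445 CPM in 3D FNHCS (log2 fold change 2.13 ± 0.226 SE, edgeR adjusted p = 0.00169).

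Matrix genes rose. Of 17 tested basement membrane genes, 12 rose and Col18a1 fell, a fall not called without 3D FNHCS SN3593, without 2D FBS SN3593 or without 2D FBS SN3595. Col4a5 had 412 and 436 CPM in 2D FBS, against 34.4 and 45.2 CPM in 3D FNHCS (log2 fold change 3.41 ± 0.429 SE, edgeR adjusted p = 0.00259). Of 18 tested interstitial matrix and crosslinking genes, 13 rose and none fell (median 3.61). Fn1, fibronectin, had 3209 and 1428 CPM in 2D FBS, against 95.3 and 106 CPM in 3D FNHCS (log2 fold change 4.52 ± 0.485 SE, edgeR adjusted p = 0.00174). Lox, which crosslinks collagen and elastin, had 1105 and 883 CPM in 2D FBS, against 0.173 and 1.5 CPM in 3D FNHCS (log2 fold change 10.20 ± 1.02 SE, edgeR adjusted p = 0.00153). Ltbp2 had 383 and 214 CPM in 2D FBS, against 0.547 and 0.312 CPM in 3D FNHCS (log2 fold change 9.43 ± 0.490 SE, edgeR adjusted p = 0.00074). Fbln2 had 37.4 and 83.4 CPM in 2D FBS, against 0.115 and 0.0851 CPM in 3D FNHCS (log2 fold change 9.19 ± 0.588 SE, edgeR adjusted p = 0.00074). The fibrillar collagen gene Col5a2 was at 0 in both 3D FNHCS libraries and had 33.2 and 25.2 CPM in 2D FBS, at least 341-fold higher against the floor (edgeR adjusted p = 0.00107). Its usual companions in fibroblasts, Col1a1 and Col3a1, had at most 12 counts in any of the 4 libraries.

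Of 12 tested matrix proteases and their inhibitors, 5 rose and 3 fell, and 5 fell with the lines as replicate block, without 2D FNHCS SN3593 or without 2D FNHCS SN3595. Timp2, an inhibitor of metalloproteinases, had 2593 and 3537 CPM in 2D FBS, against 217 and 267 CPM in 3D FNHCS (log2 fold change 3.66 ± 0.301 SE, edgeR adjusted p = 0.00107). Adam19, a membrane protease, had 0.115 and 0.380 CPM in 2D FBS, against 80.9 and 117 CPM in 3D FNHCS (log2 fold change -8.59 ± 0.540 SE, edgeR adjusted p = 0.00074).

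YAP and TAZ are coactivators that enter the nucleus of spread cells and are known to promote the AT1 fate. Of 18 tested targets, 11 rose and Birc5, which is also a mitotic gene, fell, with a median of 1.67. The rises numbered 7 without 2D FBS SN3593. Ctgf, a secreted matrix protein, had 8969 and 8913 CPM in 2D FBS, against 991 and 356 CPM in 3D FNHCS (log2 fold change 3.73 ± 0.539 SE, edgeR adjusted p = 0.00375). Ankrd1, a nuclear ankyrin-repeat protein, had 847 and 660.3 CPM in 2D FBS, against 4.49 and 1.70 CPM in 3D FNHCS (log2 fold change 7.93 ± 0.569 SE, edgeR adjusted p = 0.000795). F3, tissue factor, had 3545 and 3363 CPM in 2D FBS, against 102 and 89.9 CPM in 3D FNHCS (log2 fold change 5.17 ± 0.314 SE, edgeR adjusted p = 0.00074). Lats2, a kinase that restrains YAP, had 185 and 192 CPM in 2D FBS, against 24.0 and 21.9 CPM in 3D FNHCS (log2 fold change 3.04 ± 0.277 SE, edgeR adjusted p = 0.00132). Cyr61, a standard target, was not called (edgeR adjusted p = 0.0787), at 4351 and 5219 CPM in 2D FBS, with 2829 and 1699.8 CPM in 3D FNHCS.

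Mesenchymal genes rose beside epithelial genes that did not fall together. Of 10 tested mesenchymal transition genes, Vim, Zeb1, S100a4, Acta2, Fn1 and Sparc rose and none fell. With upper-quartile factors, library size alone, DESeq2 or the lines as replicate block, 1 fell. Acta2, Fn1 and S100a4 were already given above among the contractile, matrix and S100 genes, so their rises are not separate results. Zeb1, a repressor of epithelial genes, had 3.91 and 1.95 CPM in 2D FBS, against 0.173 and 0.142 CPM in 3D FNHCS (log2 fold change 4.19 ± 0.610 SE, edgeR adjusted p = 0.00385). Snai2, Twist1, Twist2 and Prrx1 did not pass the filter on low counts. Of 21 epithelial identity genes, 7 rose and 4 fell, or 7 with the lines as replicate block. The called members were 52.4% of the list, against 40.5% of all tested genes. Cdh1, E-cadherin, was among the genes that rose, with 1241 and 1923 CPM in 2D FBS, against 341 and 471 CPM in 3D FNHCS (log2 fold change 1.96 ± 0.335 SE, edgeR adjusted p = 0.00632). Epcam had 348 and 287 CPM in 2D FBS, with 619 and 532 CPM in 3D FNHCS (edgeR adjusted p = 0.079, and 0.0289 with the lines as replicate block). Elf3, an epithelial ETS factor, had 37.3 and 32.6 CPM in 2D FBS, against 222 and 196 CPM in 3D FNHCS (log2 fold change -2.58 ± 0.179 SE, edgeR adjusted p = 0.000766). Elf5 had 1 count in the 2D FBS libraries together and 11.1 and 11.7 CPM in 3D FNHCS, a level lower in 2D FBS by 847-fold, with an exact 95% counting interval of 152 to 33498 (edgeR adjusted p = 0.000787). Grhl1 had 25.2 and 26.5 CPM in 2D FBS, against 9.27 and 9.30 CPM in 3D FNHCS (log2 fold change 1.47 ± 0.193 SE, edgeR adjusted p = 0.00285).

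Of 14 tested tight junction genes, 6 rose, 3 without 3D FNHCS SN3595 and 3 without 2D FBS SN3595, and 3 fell. Cldn18, the claudin of alveolar epithelium, had 2970.2 and 4852 CPM in 2D FBS, against 385 and 321 CPM in 3D FNHCS (log2 fold change 3.47 ± 0.540 SE, edgeR adjusted p = 0.00476). Cldn1 had 19.1 and 27.2 CPM in 2D FBS, against 0.691 and 0.681 CPM in 3D FNHCS (log2 fold change 5.07 ± 0.415 SE, edgeR adjusted p = 0.00107). Tjp3 had 23.8 and 22.4 CPM in 2D FBS, against 69.9 and 85.0 CPM in 3D FNHCS (log2 fold change -1.74 ± 0.172 SE, edgeR adjusted p = 0.0015). Of 7 tested caveolin and cavin genes, which build the membrane pits of AT1 cells, 5 rose and none fell, with 2 rising without 3D FNHCS SN3593, 3 without 3D FNHCS SN3595 and 3 without 2D FBS SN3595. Ehd2, which holds caveolae at the membrane, had 256 and 238 CPM in 2D FBS, against 12.4 and 14.5 CPM in 3D FNHCS (log2 fold change 4.20 ± 0.537 SE, edgeR adjusted p = 0.00269).

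Lung transcription factors were called in 50% of those tested, against 40.5% of all tested genes. Of 18 tested, 8 fell and Tead1 rose. That rise was lost without 3D FNHCS SN3595 or without 2D FBS SN3595, and 2 rose with the lines as replicate block, without 2D FNHCS SN3593 or without 2D FNHCS SN3595. Id2, an inhibitor of basic helix-loop-helix factors that marks lung progenitors, had 8.19 and 7.93 CPM in 2D FBS, against 974 and 939 CPM in 3D FNHCS (log2 fold change -6.89 ± 0.228 SE, edgeR adjusted p = 0.000297), the lowest adjusted p of all list members. Cebpa, a driver of AT2 maturation, had 2.82 and 1.52 CPM in 2D FBS, against 64.7 and 82.8 CPM in 3D FNHCS (log2 fold change -5.09 ± 0.353 SE, edgeR adjusted p = 0.000766). Etv5, an ETS factor downstream of FGF signalling that maintains AT2 cells, had 11.1 and 7.93 CPM in 2D FBS, against 644 and 612 CPM in 3D FNHCS (log2 fold change -6.04 ± 0.427 SE, edgeR adjusted p = 0.000787). Foxa1, Gata6 and Sox9, general factors of lung endoderm, were not called.

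Feedback genes, which signalling pathways switch on to restrain themselves, fell in the Wnt and FGF families. Of 11 tested Wnt targets, 7 fell and none rose (median -4.44), with 4 lower without 2D FBS SN3595. Sp5 had 21.6 and 23.8 CPM in 2D FBS, against 115 and 118 CPM in 3D FNHCS (log2 fold change -2.36 ± 0.179 SE, edgeR adjusted p = 0.000926), and Nkd1, an inhibitor of the pathway, had 1.90 and 1.06 CPM in 2D FBS, against 38.8 and 28.0 CPM in 3D FNHCS (log2 fold change -4.50 ± 0.370 SE, edgeR adjusted p = 0.00107). Axin2, the general Wnt feedback gene, had 3 counts in all in 2D FBS and 5.76 and 3.91 CPM in 3D FNHCS, a level lower in 2D FBS by 119.6-fold, with an exact 95% counting interval of 40.6 to 583 (edgeR adjusted p = 0.00262). Of 18 FGF and MAPK feedback genes, 11 fell and none rose in edgeR, 6 without 3D FNHCS SN3593, 5 without 3D FNHCS SN3595 and 7 without 2D FBS SN3593, while 2 rose with the lines as replicate block, 1 without 2D FNHCS SN3593 and 1 without 2D FNHCS SN3595. Spry4, an inhibitor of receptor tyrosine kinase signalling, had 1.98 and 1.80 CPM in 2D FBS, against 22.6 and 27.1 CPM in 3D FNHCS (log2 fold change -3.71 ± 0.296 SE, edgeR adjusted p = 0.00105).

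Immediate early genes, which answer growth factors within minutes and also tissue handling, fell in 10 of 15 tested genes. Klf6 rose, a call lost without any one of the 2D FBS or 3D FNHCS libraries. Fos had 56.7 and 49.3 CPM in 2D FBS, against 1735 and 1419.7 CPM in 3D FNHCS (log2 fold change -4.90 ± 0.346 SE, edgeR adjusted p = 0.000787). Fosb had 0.603 and 0.608 CPM in 2D FBS, against 35.1 and 37.2 CPM in 3D FNHCS (log2 fold change -5.89 ± 0.327 SE, edgeR adjusted p = 0.00074). Egr1 had 105 and 183 CPM in 2D FBS, against 1899 and 2070.3 CPM in 3D FNHCS (log2 fold change -3.78 ± 0.378 SE, edgeR adjusted p = 0.00153). All libraries were dissociated with the enzyme mix TrypLE before RNA extraction, and the labels do not give its duration for each format, so its part in these values was not tested.

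Of 11 tested BMP targets, 6 fell and Nog rose. Id1 had 34.5 and 27.4 CPM in 2D FBS, against 139.9 and 135 CPM in 3D FNHCS (log2 fold change -2.15 ± 0.194 SE, edgeR adjusted p = 0.00129). Bmp4, a ligand, had 6.98 and 11.8 CPM in 2D FBS, against 223 and 119 CPM in 3D FNHCS (log2 fold change -4.19 ± 0.411 SE, edgeR adjusted p = 0.0015). Nog, the secreted antagonist noggin, had 34.2 and 39.0 CPM in 2D FBS, against 0.662 and 0.369 CPM in 3D FNHCS (log2 fold change 6.14 ± 0.387 SE, edgeR adjusted p = 0.00074). Of 16 TGF-beta targets, 5 rose and 3 fell, and 1 fell without 3D FNHCS SN3593 and 1 without 2D FBS SN3595. In either direction 50% of the TGF-beta targets were called, against 40.5% of all tested genes. Tgfb2, a ligand, had 286 and 196 CPM in 2D FBS, against 30.4 and 16.7 CPM in 3D FNHCS (log2 fold change 3.35 ± 0.434 SE, edgeR adjusted p = 0.00276). Pmepa1, a feedback inhibitor, had 15.7 and 24.8 CPM in 2D FBS, against 1.35 and 1.96 CPM in 3D FNHCS (log2 fold change 3.61 ± 0.403 SE, edgeR adjusted p = 0.00189).

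Of 12 tested Notch pathway genes, 6 fell, 2 without 3D FNHCS SN3593 and 3 without 2D FBS SN3593, and Lfng rose, a call lost without 3D FNHCS SN3593, without 3D FNHCS SN3595 or without 2D FBS SN3593. Nrarp, a feedback target, had 0.287 and 0.203 CPM in 2D FBS, against 9.59 and 16.1 CPM in 3D FNHCS (log2 fold change -5.70 ± 0.465 SE, edgeR adjusted p = 0.00107). Of 13 tested EGF family genes, 4 rose and 4 fell, the falls numbering 1 without 3D FNHCS SN3595, 1 without 2D FBS SN3593 and 2 without 2D FBS SN3595. Egfr, the receptor, had 15.9 and 9.62 CPM in 2D FBS, against 0.778 and 0.539 CPM in 3D FNHCS (log2 fold change 4.27 ± 0.564 SE, edgeR adjusted p = 0.00292), and Nrg1, the ligand neuregulin, had 56.1 and 81.7 CPM in 2D FBS, against 2.02 and 1.64 CPM in 3D FNHCS (log2 fold change 5.23 ± 0.524 SE, edgeR adjusted p = 0.00153). In the insulin-like growth factor axis the binding proteins moved apart: Igfbp2 and Igfbp7 rose, and Igfbp4 and Igfbp5 fell. Igfbp4 had 0.345 and 0.152 CPM in 2D FBS, against 399 and 459 CPM in 3D FNHCS (log2 fold change -10.76 ± 1.18 SE, edgeR adjusted p = 0.00183). Igfbp7 had 3277 and 2551 CPM in 2D FBS, against 289 and 142 CPM in 3D FNHCS (log2 fold change 3.76 ± 0.420 SE, edgeR adjusted p = 0.00191). Of 8 tested genes of the axis 4 rose and 3 fell, the rises numbering 2 without 3D FNHCS SN3593, without 2D FBS SN3593 or without 2D FBS SN3595.

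Few interferon-stimulated genes were called, 21.7% of those tested, against 40.5% of all tested genes. Of 23 tested, 4 fell and Isg20 rose, and 4 rose with the lines as replicate block. The falls numbered 7 without 3D FNHCS SN3593 and 1 without 3D FNHCS SN3595, without 2D FBS SN3593 or without 2D FBS SN3595, and Isg20 was not called without 3D FNHCS SN3593, without 2D FBS SN3593 or without 2D FBS SN3595. Rsad2, the antiviral protein viperin, had 1.06 and 0.354 CPM in 2D FBS, against 40.7 and 36.5 CPM in 3D FNHCS (log2 fold change -5.78 ± 0.793 SE, edgeR adjusted p = 0.00321). Oas2, a sensor of double-stranded RNA, was not called (edgeR adjusted p = 0.0926, and 0.00846 with the lines as replicate block), at 0.0287 and 0.0506 CPM in 2D FBS, with 0.0288 and 18.0 CPM in 3D FNHCS, the SN3595 organoids being the only high library of the 4.

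Most genes of lipid synthesis, which feeds surfactant, fell. Of 22 fatty acid and phospholipid genes, 15 fell and none rose (median -1.83), with 1 rising with the lines as replicate block. Fasn, fatty acid synthase, had 60.8 and 53.5 CPM in 2D FBS, against 642 and 1319 CPM in 3D FNHCS (log2 fold change -4.10 ± 0.410 SE, edgeR adjusted p = 0.00153). Scd1, which makes monounsaturated fatty acids, had 183 and 86.9 CPM in 2D FBS, against 5138 and 9694 CPM in 3D FNHCS (log2 fold change -5.78 ± 0.702 SE, edgeR adjusted p = 0.00238), while its relative Scd2 had 1238 and 2297 CPM in 2D FBS, with 1586 and 2554 CPM in 3D FNHCS (edgeR adjusted p = 0.719). Fads1 had 15.9 and 21.0 CPM in 2D FBS, against 205 and 275 CPM in 3D FNHCS (log2 fold change -3.70 ± 0.303 SE, edgeR adjusted p = 0.00107). Cholesterol synthesis genes were called in 26.1% of those tested, against 40.5% of all tested genes. Of 23 tested, 3 rose and 3 fell, or 7 and 5 with the lines as replicate block. The rises numbered 1 without 3D FNHCS SN3593, 1 without 2D FBS SN3595, 6 without 2D FNHCS SN3593 and 5 without 2D FNHCS SN3595, and the falls 1 without 3D FNHCS SN3595 and 1 without 2D FBS SN3593. Hsd17b7, an enzyme of the pathway, had 280.0 and 377 CPM in 2D FBS, against 29.6 and 28.7 CPM in 3D FNHCS (log2 fold change 3.49 ± 0.304 SE, edgeR adjusted p = 0.0012).

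Of 19 tested hypoxia-induced genes, 11 fell, and Vegfa, also an AT1 marker, rose, its call lost without any one of the 2D FBS or 3D FNHCS libraries, while 2 rose with the lines as replicate block. Egln3, an oxygen-sensing prolyl hydroxylase, had 3.13 and 0.785 CPM in 2D FBS, against 404 and 543 CPM in 3D FNHCS (log2 fold change -7.93 ± 0.867 SE, edgeR adjusted p = 0.00181). Bnip3, a mitophagy receptor, had 497 and 398 CPM in 2D FBS, against 1497 and 1701 CPM in 3D FNHCS (log2 fold change -1.84 ± 0.226 SE, edgeR adjusted p = 0.00246), and its 2D FNHCS values were 128 and 131 CPM, below both ends. Glycolysis genes were called in 50% and the oxidative phosphorylation genes given below in 16.7%, against 40.5% of all tested genes. Of 18 glycolysis genes, 9 fell and none rose, with 1 rising with the lines as replicate block. The falls numbered 5 without 3D FNHCS SN3593, 4 without 3D FNHCS SN3595, 4 without 2D FBS SN3593 and 3 without 2D FBS SN3595. Gpi1, glucose phosphate isomerase, had 291 and 294 CPM in 2D FBS, against 1307 and 1591 CPM in 3D FNHCS (log2 fold change -2.31 ± 0.218 SE, edgeR adjusted p = 0.00141). Slc2a1, the main glucose carrier, had 301 and 223 CPM in 2D FBS, with 224 and 367 CPM in 3D FNHCS (edgeR adjusted p = 0.666). Gapdh, often used as a reference gene, had 5593 and 4854 CPM in 2D FBS, against 11205 and 12392 CPM in 3D FNHCS (log2 fold change -1.18 ± 0.281 SE, edgeR adjusted p = 0.019), a call lost without 2D FBS SN3593 (adjusted p = 0.0906), 2D FBS SN3595 (adjusted p = 0.126), 3D FNHCS SN3593 (adjusted p = 0.0614) or 3D FNHCS SN3595 (adjusted p = 0.0685), with a range of 3.53e-09 to 0.367 over all alternatives. Of 24 oxidative phosphorylation genes, 3 rose and 1 fell, or 6 and 2 with the lines as replicate block, none rose without 3D FNHCS SN3593 or without 2D FBS SN3593, and 1 rose without 3D FNHCS SN3595 and 1 without 2D FBS SN3595. None fell without 3D FNHCS SN3593 or without 2D FBS SN3595.

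Ribosomal protein genes fell without exception on the list. All 24 members were lower in 2D FBS, with a median of -2.37, and each of the 24 calls remained in every fit that left out 1 library. Rpl13 had 465 and 412 CPM in 2D FBS, against 3842 and 2524 CPM in 3D FNHCS (log2 fold change -2.86 ± 0.299 SE, edgeR adjusted p = 0.00165). Rpl32 had 235 and 194 CPM in 2D FBS, against 2219.8 and 1387 CPM in 3D FNHCS (log2 fold change -3.07 ± 0.311 SE, edgeR adjusted p = 0.00157). Rps6 had 228 and 246 CPM in 2D FBS, against 1239.6 and 961 CPM in 3D FNHCS (log2 fold change -2.21 ± 0.234 SE, edgeR adjusted p = 0.00168). Extended after this was seen to every cytosolic ribosomal protein gene of the table, 79 were tested, 75 fell and none rose (median -2.36), the exceptions being Rpl30, Rpl34, Rpl36al and Rps27l. Together they took 1.32% and 1.14% of counts in 2D FBS, against 8.82% and 5.23% in 3D FNHCS. The share of 2D FNHCS was 2.69% and 2.70%. The translation factor Eef1a1 moved with them, with 1108 and 1126 CPM in 2D FBS, against 10745 and 6257 CPM in 3D FNHCS (log2 fold change -2.93 ± 0.359 SE, edgeR adjusted p = 0.00243). Many of these genes have processed pseudogenes of near-identical sequence, so single values are uncertain. The ribosomal precursor row Rn45s, which polyA selection should remove, took 0.371% and 0.259% of counts in 2D FBS, against 1.60% and 1.03% in 3D FNHCS, and its part in the other shares was not tested.

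Proliferation genes were lower in 2D FBS. Of 24 mitotic genes, 22 fell and none rose, with a median of -4.80, and 1 rose without 3D FNHCS SN3595. Cdk1, the mitotic kinase, had 0.488 and 0.557 CPM in 2D FBS, against 37.3 and 51.4 CPM in 3D FNHCS (log2 fold change -6.39 ± 0.287 SE, edgeR adjusted p = 0.000664). Mki67, the proliferation antigen, had 0.718 and 0.988 CPM in 2D FBS, against 7.2 and 17.2 CPM in 3D FNHCS (log2 fold change -3.83 ± 0.534 SE, edgeR adjusted p = 0.00339). Top2a, a topoisomerase of dividing cells, had 0.661 and 0.557 CPM in 2D FBS, against 19.9 and 42.1 CPM in 3D FNHCS (log2 fold change -5.66 ± 0.467 SE, edgeR adjusted p = 0.00107). Tpx2 and Anln were not called. Of 25 DNA replication genes, 17 fell, and Rrm1 rose. The median of the replication genes was -1.60. Mcm6, part of the replicative helicase, had 20.4 and 17.7 CPM in 2D FBS, against 61.5 and 57.8 CPM in 3D FNHCS (log2 fold change -1.65 ± 0.189 SE, edgeR adjusted p = 0.00209). Mcm10 had 0.144 and 0.203 CPM in 2D FBS, against 3.02 and 4.17 CPM in 3D FNHCS (log2 fold change -4.34 ± 0.483 SE, edgeR adjusted p = 0.00188).

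Of 20 p53 targets and inhibitors of cyclin-dependent kinases, 8 rose and 3 fell, with 5 rising under upper-quartile factors. The rises numbered 5 without 3D FNHCS SN3593, 3 without 3D FNHCS SN3595, 3 without 2D FBS SN3593 and 5 without 2D FBS SN3595, and 1 fell without 3D FNHCS SN3593, without 3D FNHCS SN3595 or without 2D FBS SN3595. In either direction 55% of this list was called, against 40.5% of all tested genes. Cdkn2b, an inhibitor induced by TGF-beta, had 269 and 405 CPM in 2D FBS, against 75.3 and 90.4 CPM in 3D FNHCS (log2 fold change 2.02 ± 0.326 SE, edgeR adjusted p = 0.00526). Ccng1, a p53 target, had 1016 and 1047 CPM in 2D FBS, against 279 and 255 CPM in 3D FNHCS (log2 fold change 1.95 ± 0.203 SE, edgeR adjusted p = 0.00164). Cdkn2a, an inhibitor linked to senescence, had 3.19 and 2.79 CPM in 2D FBS, with 3.20 and 2.04 CPM in 3D FNHCS (edgeR adjusted p = 0.754).

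Stress and degradation genes were called in both directions. Of the ER stress genes 50% were called, of the NRF2 genes 52.9% and of the lysosome genes 43.5%, against 40.5% of all tested genes. Of 18 ER stress and amino acid response genes, 8 rose and Slc7a11, the cystine carrier, fell, the rises numbering 2 without 3D FNHCS SN3593, 3 without 3D FNHCS SN3595, 4 without 2D FBS SN3593 and 3 without 2D FBS SN3595. Asns, asparagine synthetase, had 269 and 303 CPM in 2D FBS, against 17.5 and 19.99 CPM in 3D FNHCS (log2 fold change 3.93 ± 0.571 SE, edgeR adjusted p = 0.00383). Of 17 tested NRF2 antioxidant genes, 9 fell and none rose in edgeR, 5 without 3D FNHCS SN3595, 4 without 2D FBS SN3593 and 4 without 2D FBS SN3595, and 1 rose with the lines as replicate block, without 2D FNHCS SN3593, without 2D FNHCS SN3595 or without 2D FBS SN3595. Gclc, which limits glutathione synthesis, had 153 and 142 CPM in 2D FBS, against 634 and 898 CPM in 3D FNHCS (log2 fold change -2.38 ± 0.241 SE, edgeR adjusted p = 0.00157). Of 23 tested lysosome genes, 6 rose and 4 fell, and 11 rose with DESeq2. The rises numbered 2 without 3D FNHCS SN3593, 3 without 3D FNHCS SN3595, 3 without 2D FBS SN3593 and 2 without 2D FBS SN3595. Ctsc, cathepsin C, had 114 and 143 CPM in 2D FBS, against 1165 and 1749 CPM in 3D FNHCS (log2 fold change -3.50 ± 0.302 SE, edgeR adjusted p = 0.00117). Atp6v1c2, an isoform of the proton pump found in lung, had 0.661 and 0.203 CPM in 2D FBS, against 45.4 and 57.7 CPM in 3D FNHCS (log2 fold change -6.91 ± 0.568 SE, edgeR adjusted p = 0.00107).

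Ion transport genes exchanged. Of 15 tested, 5 rose, among them the 3 sodium channel subunits Scnn1a, Scnn1b and Scnn1g, and 6 fell, or 3 without 2D FBS SN3593 or without 2D FBS SN3595. Slc26a9, an epithelial chloride carrier, had 2.53 and 3.80 CPM in 2D FBS, against 93.5 and 212 CPM in 3D FNHCS (log2 fold change -5.59 ± 0.483 SE, edgeR adjusted p = 0.00117). Ano1, a calcium-activated chloride channel, had 564 and 1027 CPM in 2D FBS, against 50.7 and 31.1 CPM in 3D FNHCS (log2 fold change 4.28 ± 0.478 SE, edgeR adjusted p = 0.0019). Slc26a4, the anion exchanger pendrin, had 0.0287 and 0.405 CPM in 2D FBS, against 284 and 349 CPM in 3D FNHCS (log2 fold change -10.44 ± 0.885 SE, edgeR adjusted p = 0.0011). Of 19 tested vascular and neural signals, 11 rose, or 7 without 3D FNHCS SN3595, and 4 fell. Ntn4, a secreted netrin, had 438 and 418 CPM in 2D FBS, against 3.92 and 2.52 CPM in 3D FNHCS (log2 fold change 7.05 ± 0.406 SE, edgeR adjusted p = 0.00074). Apln, the vascular peptide apelin, had 0.0287 and 0.456 CPM in 2D FBS, against 53.4 and 99.5 CPM in 3D FNHCS (log2 fold change -8.23 ± 0.826 SE, edgeR adjusted p = 0.00154).

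The largest fold changes included receptors of neuropeptide Y and several genes outside the lists. Npy2r, a receptor of neuropeptide Y, had 1 count in the 2D FBS libraries together and 158 and 239 CPM in 3D FNHCS, a level lower in 2D FBS by 14772-fold, with an exact 95% counting interval of 2651 to 583525 (edgeR adjusted p = 0.00074). Another receptor of the family went the other way: Npy6r was at 0 in both 3D FNHCS libraries and had 16.2 and 5.65 CPM in 2D FBS, at least 127-fold higher against the floor (edgeR adjusted p = 0.00498). Npy1r was not called (edgeR adjusted p = 0.924), at 2.38 and 1.04 CPM in 2D FBS, with 2.39 and 1.25 CPM in 3D FNHCS. Gpr37, an orphan receptor, was at 0 in both 3D FNHCS libraries and had 27.3 and 16.9 CPM in 2D FBS, at least 257-fold higher (edgeR adjusted p = 0.0012). Ppp2r2b, a regulatory subunit of phosphatase 2A, was at 0 there too and had 12.0 and 8.43 CPM in 2D FBS, at least 119-fold higher (edgeR adjusted p = 0.00107). Tm6sf1 had 50.2 and 19.2 CPM in 2D FBS and 1 count in the 3D FNHCS libraries together, a level higher in 2D FBS by 2358-fold, with an exact 95% counting interval of 423 to 93174 (edgeR adjusted p = 0.0015). The kallikrein gene Klk13 was at 0 in 2D FBS and had 11.3 and 9.02 CPM in 3D FNHCS, at least 125-fold lower in 2D FBS (edgeR adjusted p = 0.00188).

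Among the most abundant transcripts that fell were Malat1, a nuclear long RNA, and Ftl1, ferritin light chain. Malat1 had 4474 and 6036 CPM in 2D FBS, against 15937 and 10167 CPM in 3D FNHCS (log2 fold change -1.31 ± 0.375 SE, edgeR adjusted p = 0.0341), a call lost without 2D FBS SN3593 (adjusted p = 0.188), 2D FBS SN3595 (adjusted p = 0.0962) or 3D FNHCS SN3593 (adjusted p = 0.16), with a range of 0.000307 to 0.303 over all alternatives. With the lines as replicate block it was not called (edgeR adjusted p = 0.0591). Ftl1 had 4355 and 4979.8 CPM in 2D FBS, against 10745 and 14616 CPM in 3D FNHCS (log2 fold change -1.44 ± 0.327 SE, edgeR adjusted p = 0.0159), a call lost without 2D FBS SN3593 (adjusted p = 0.11), 2D FBS SN3595 (adjusted p = 0.0781) or 3D FNHCS SN3595 (adjusted p = 0.0628), with a range of 4.52e-07 to 0.161 over all alternatives. Among those that rose, Clu, a secreted chaperone, had 5017 and 7063 CPM in 2D FBS, against 2682 and 3003 CPM in 3D FNHCS (log2 fold change 1.09 ± 0.316 SE, edgeR adjusted p = 0.0362), a call lost without 2D FBS SN3593 (adjusted p = 0.0731), 2D FBS SN3595 (adjusted p = 0.209), 3D FNHCS SN3593 (adjusted p = 0.172) or 3D FNHCS SN3595 (adjusted p = 0.101), with a range of 2.58e-05 to 0.529 over all alternatives, and with the lines as replicate block (edgeR adjusted p = 0.0573). Its 2D FNHCS values were 13846 and 13630.5 CPM, above both ends.

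The direction was shared by the lines in every called gene: of 5836 calls, none had log2 ratios of opposite sign in SN3593 and SN3595, which the test itself favours. For 193 calls the ratios differed by more than 2. Over all tested genes, 2123 (14.7%) had opposite signs, and 81 of these moved by at least 1 in each direction. Msln, mesothelin, shows how uneven lines could be, with 551 and 2142 CPM in 2D FBS, against 4.87 and 12.2 CPM in 3D FNHCS (log2 fold change 7.30 ± 1.90 SE, edgeR adjusted p = 0.0253), a call lost without 2D FBS SN3595 (adjusted p = 0.0759), 3D FNHCS SN3593 (adjusted p = 0.124) or 3D FNHCS SN3595 (adjusted p = 0.0917), with a range of 0.000102 to 0.124 over all alternatives. The 2D FBS library of SN3595 was the higher one for Msln, whereas SN3593 was higher for Acta1, Acta2 and Cnn1.

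**Figure D3:**
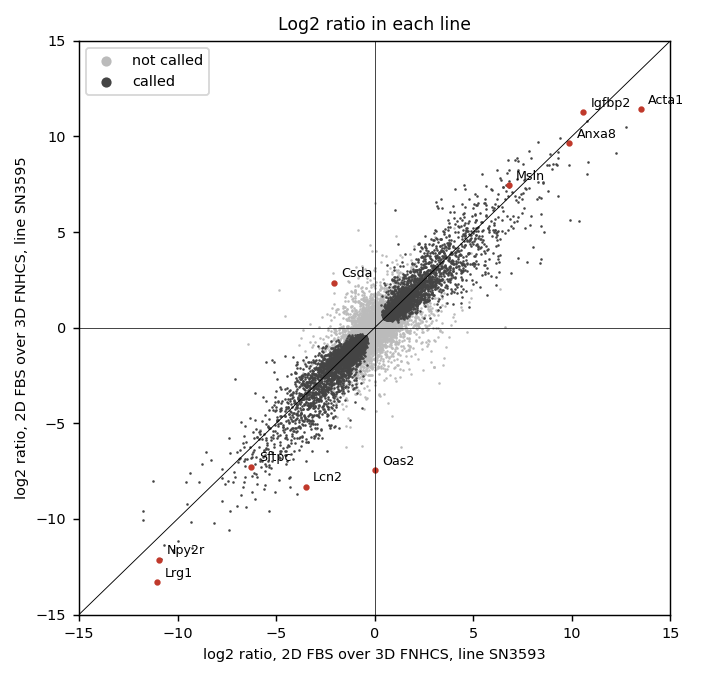
Log2 ratio of 2D FBS over 3D FNHCS in line SN3593 (horizontal axis) and line SN3595 (vertical axis), 1 point per tested gene, with the diagonal of equal ratios. Called genes (dark) lie in the lower left and upper right quadrants, and named red points include Oas2 and Csda, which are off the diagonal and were not called.

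Flat culture in FNHCS medium lay between these ends for most called genes. The called genes were picked for a difference between the ends, which itself favours a value between them. The share among the other tested genes was not computed. The mean CPM of 2D FNHCS fell between those of 2D FBS and 3D FNHCS for 2410 of the 2874 genes that rose (83.9%) and for 2501 of the 2962 that fell (84.4%). It was above the 2D FBS mean in 281 (9.78%) of the genes that rose and below the 2D FBS mean in 330 (11.1%) of those that fell. The lists differed in how far 2D FNHCS stood from 3D FNHCS, and the values below share the 3D FNHCS libraries. The contractile genes had a median log2 ratio over 3D FNHCS of 6.78 in 2D FBS and 1.18 in 2D FNHCS. Basement membrane genes had 2.11 in 2D FBS and 1.74 in 2D FNHCS. AT1 markers had 3.96 in 2D FBS and 1.86 in 2D FNHCS, and AT2 markers -4.94 in 2D FBS and -2.07 in 2D FNHCS. Sftpc did not follow its list, with 5.91% and 4.36% of counts in 2D FNHCS, against 3.37% and 4.0% in 3D FNHCS. Hypoxia-induced genes were lower in 2D FNHCS than at either end, with medians of -1.17 in 2D FBS and -3.19 in 2D FNHCS, and so were glycolysis genes, with -0.82 in 2D FBS and -2.15 in 2D FNHCS.

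**Figure D4:**
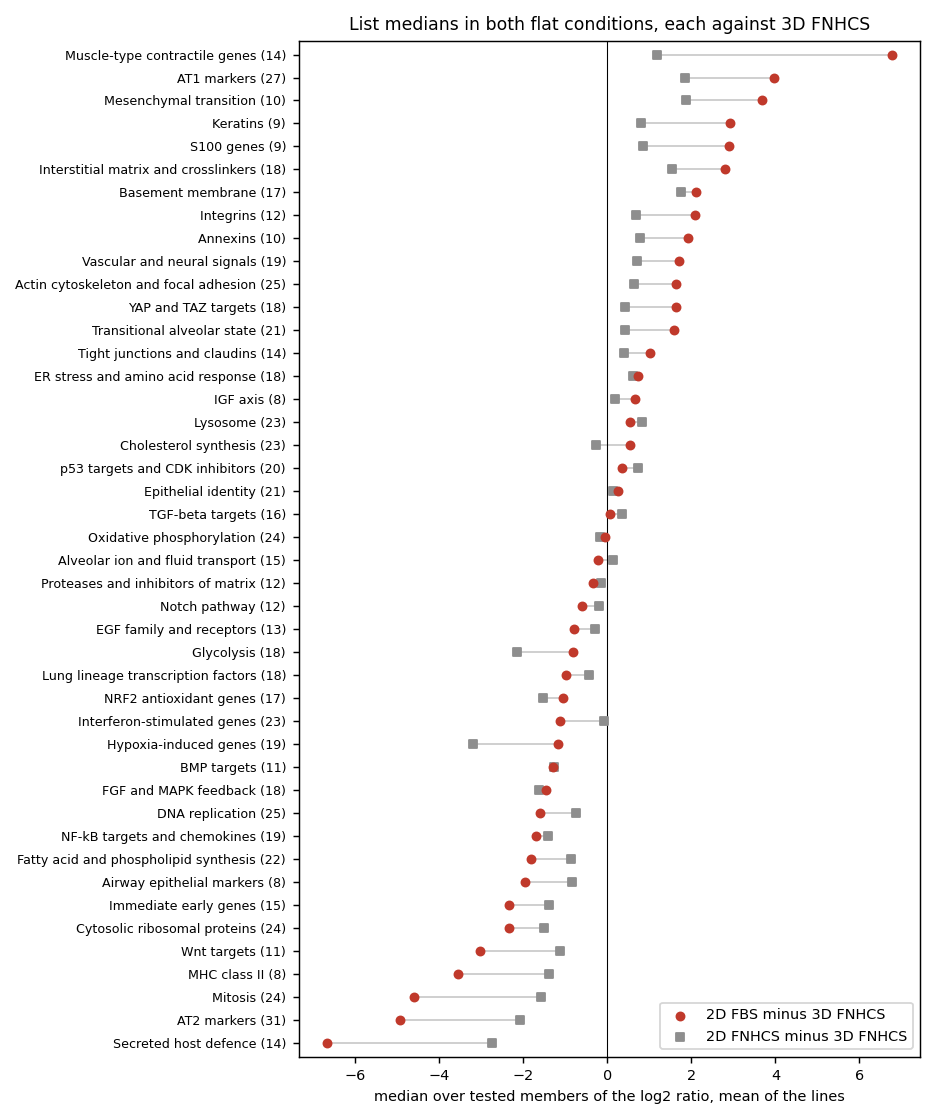
Median over the tested members of each list of the log2 ratio, averaged over the lines, for 2D FBS over 3D FNHCS (red circles) and 2D FNHCS over 3D FNHCS (grey squares), with the number of tested members in brackets and lists of at least 8 tested members shown. Contractile genes are at 6.78 in 2D FBS and 1.18 in 2D FNHCS, and hypoxia-induced and glycolysis genes are lower in 2D FNHCS than in 2D FBS.

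**Figure D5:**
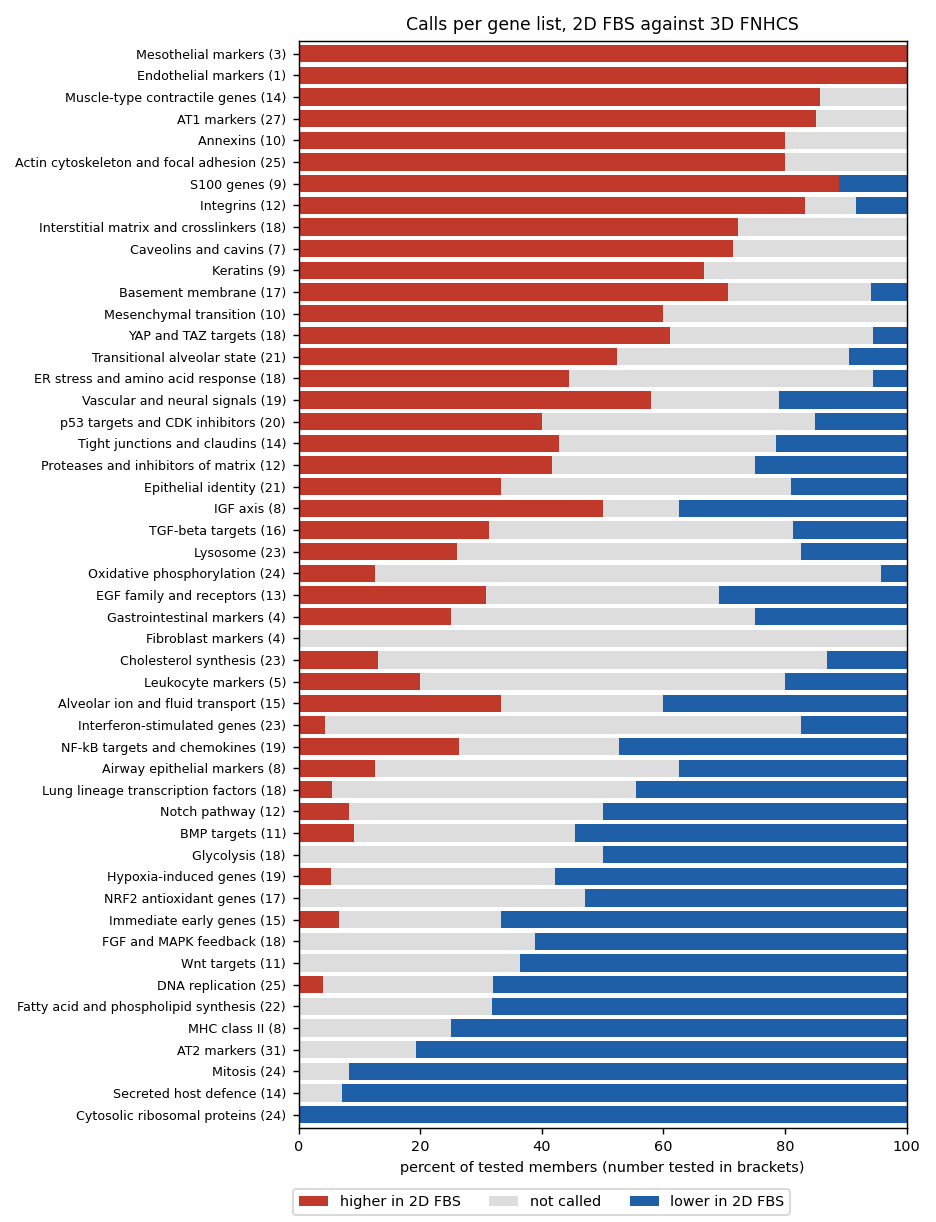
Percent of the tested members of each of the 50 lists called higher in 2D FBS (red), not called (grey) or called lower in 2D FBS (blue), with the number tested in brackets. Over all 14416 tested genes 19.9% were higher and 20.5% lower, and where no member was called in a direction, limma-voom called none and DESeq2 called 1 in the fibroblast, mesenchymal transition, FGF and MAPK, glycolysis and NRF2 lists. The lists run from those mostly higher, such as the contractile genes (12 of 14), to the ribosomal protein genes (24 of 24 lower).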

How the data were processed

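PolyA RNA from mouse alveolar organoid cultures was sequenced in 6 libraries, from 2 lines in each of 3 conditions. The values are RSEM expected counts per gene, deposited by the authors, made with RSEM 1.3.1, Bowtie 1.2.3 and the mm9 build per the submitters' processing notes, and divide reads between similar genes by a model. The labels do not state whether counting used strand, so overlapping genes on opposite strands may share reads.

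Expected counts were rounded to whole numbers and fitted with edgeR 4.0.16 (quasi-likelihood test, TMM factors, filterByExpr, R 4.3.3) on all 6 libraries by condition, with 3 residual degrees of freedom, since the 2D FNHCS libraries add to the estimate of spread. Of 23224 genes, 8808 were left out as low and 14416 were tested, with Benjamini-Hochberg adjustment over all of them and a threshold of 0.05. Total counts were 33634368 to 43334665 per library, so 3 counts, used as the floor for a gene at 0, correspond to 0.0704 to 0.0864 CPM. Intervals and floors cover counting error only. An exact permutation test of 2 against 2 libraries cannot go below p = 0.333, so single values have no such test. Log2 ratios per line used a prior count of 2. Symbols are the file's own, older ones included (Ctgf, Cyr61, Ptrf).

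The same lines occur in every condition, per the labels, which pairs the libraries. Deviations from the condition means correlated at 0.245 between libraries of 1 line, and a fit with the line as replicate block is an alternative. The other alternatives were DESeq2 1.42.0, limma-voom (limma 3.58.1), other scalings and filters, the 4 libraries alone, a test against a log2 fold change of 1 and leaving out each library.

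The comparison, the gene lists and the rule for named genes were chosen with earlier results of these data known. The rule took 5 alveolar genes, the 10 largest rises and 10 largest falls without overlap whose higher condition averaged 10 CPM or more, the 8 most abundant of each, the 3 called members of each list with the lowest adjusted p, and the 4 most abundant genes with opposite changes in the lines. Other list members were named after their values were seen. Some genes that the rule names are not reported here. Promoters were matched by symbol to RefSeq sequences of GRCm38.p6, and no coordinates of mm9 were used.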

Additional observations from a re-analysis of the deposited data

Results flagged for a closer look

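Among the 81 genes whose lines moved in opposite directions by at least 1 on the log2 scale, the 4 most abundant are given here. In each the libraries of 1 line lay one way and those of the other line the opposite way, and the difference between the lines was not tested. Csda, a cold shock domain protein, had a log2 ratio of 2D FBS over 3D FNHCS of -2.07 in SN3593 and 2.36 in SN3595, a difference of -4.43. Spred1, an inhibitor of MAPK signalling, had -1.63 in SN3593 and 1.01 in SN3595, a difference of -2.64. Larp1, an RNA-binding protein that controls ribosomal protein transcripts, had -1.20 in SN3593 and 1.11 in SN3595, a difference of -2.30. Smad4, the common mediator of TGF-beta and BMP signals, had -1.33 in SN3593 and 2.37 in SN3595, a difference of -3.70. None of the 4 was called in edgeR.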

How the results depend on the processing

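The number of calls stayed within 1.5 times 5836 with DESeq2 (6769), limma-voom (5753), the other scalings (5847 to 6038), other filters (5072 and 5502), the 4 libraries alone (6072) and the replicate block, where the paired fit by line called 7112. Tested against a log2 fold change of 1, 2360 genes were called, 1106 higher and 1254 lower. Leaving out 1 library gave 3187 to 5976 calls, 1410 to 2978 of them higher and 1563 to 2998 lower. The number was below 5836 only where a 2D FBS or 3D FNHCS library was left out, not where a 2D FNHCS library was. These fits had fewer samples, and the filter also passed more genes, 14847 to 15483 against 14416. The part of each in the counts was not tested. Of the 163 named genes 156 were called. The calls lost among them were 14 against a log2 fold change of 1, 4 with limma-voom, 2 with the replicate block and 10 to 16 without 1 library of the comparison. List counts that the block moved by over 1.5 times, or away from 0, are given beside the lists, as are the calls it changed for Pdpn, Nkx2-1, Bex2, Cyp2b10, Epcam, Oas2, Clu and Malat1. The direction of Csda, not called, reversed with limma-voom (0.14), with the replicate block (0.39) and with the block in the 4 libraries alone (0.13), and the cause was not tested. Leaving out 1 library moved the log2 fold change of Csda between -1.26 and 1.78, of Spred1 between -1.10 and 0.51, of Larp1 between -0.71 and 0.73, and of Smad4 between -0.60 and 1.82. Genes under the filter were not tested, and with 2 libraries per condition a difference that was not called is not shown to be absent.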
